A study of Mus musculus with 3 samples.

Results

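Collagens are built from chains that each have a gene of their own, named Col, the collagen type, the letter a and the chain. The collagen chain genes described here are all rows of the count table with such a symbol, apart from Col17a1, and there were 43 of them among 46095 symbols. By type, 11 chains belong to the fibrillar collagens, 6 to type IV, the collagen of basement membranes, and 26 to the other types. The study sequenced RNA of prostate tumour tissue from TRAMP mice, in which a viral SV40 oncoprotein is expressed in the prostatic epithelium, to ask what loss of the histone demethylase gene Phf8 does to these tumours. Phf8-KO TRAMP mice carried the SV40 transgene and a Phf8 knockout and gave 2 libraries, Phf8-KO1 and Phf8-KO2. Control mice carried the same transgene with wild-type Phf8 and gave 1 library, TRAMP. All 3 libraries were taken at 37 weeks of age, and each held RNA pooled from 3 mice. The lesions of the mice in each pool are not given in the sources used here, and the single TRAMP library has no replicate.

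A collagen molecule is a triple helix of 3 chains, and the glycine that recurs in every Gly-X-Y triplet lets the chains pack around each other. Fibrillar collagens (types I, II, III, V and XI, with XXIV and XXVII) form the rope-like fibrils of connective tissue and are made mainly by fibroblasts and smooth muscle cells. Type IV collagen forms the sheet-like network under epithelium, around smooth muscle and around vessels, and is made by epithelial and endothelial cells as well as stroma. The other types link fibrils to each other or to the basement membrane, form networks or beaded filaments, or span the cell membrane.

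The repeat is visible in the coding exons, which are shown because a length of 54 bases is most frequent in fibrillar chains. One exon of 54 bases is given for 4 chains, from the GENCODE M21 annotation of GRCm38 and 5′ to 3′ on the coding strand, with the glycine codons in capitals.
Col1a1 (chr11:94944355-94944408, plus strand): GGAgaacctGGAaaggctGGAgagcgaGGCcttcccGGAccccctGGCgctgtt
Col3a1 (chr1:45334761-45334814, plus strand): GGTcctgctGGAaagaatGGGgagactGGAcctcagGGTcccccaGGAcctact
Col4a1 (chr8:11238998-11239051, minus strand): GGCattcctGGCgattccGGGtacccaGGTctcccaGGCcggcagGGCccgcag
Col7a1 (chr9:108980207-108980260, plus strand): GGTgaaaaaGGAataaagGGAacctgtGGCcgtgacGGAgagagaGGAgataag
Each holds 6 glycine codons. Exons of this length made up 47.0% of the 649 coding exons of fibrillar chains, 4.05% of the 296 of type IV chains and 14.8% of the 1007 of the other chains. Single chains overlapped between the classes, since Col22a1 (28 of 63 coding exons), Col9a2 and Col9a3 (14 of 32 each) held a larger share than the fibrillar Col1a1 (21 of 51). The longest run of uninterrupted glycine triplets had a median of 338 triplets in fibrillar chains (216 to 344), against 43.5 in type IV chains (39 to 66) and 45 in the other chains (23 to 113).

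Where 2 values are given for Phf8-KO, they are those of Phf8-KO1 and then Phf8-KO2. The libraries held 26747443 counts (Phf8-KO1), 31876182 (Phf8-KO2) and 29954020 (TRAMP). Phf8 itself had 399 and 528 counts in Phf8-KO1 and Phf8-KO2, or 15.0 and 15.9 CPM (counts in every 1000000 of the TMM-scaled library), against 561 counts and 19.4 CPM in TRAMP. Its log2 fold change was -0.33 ± 0.25 (SE; adjusted p = 0.44), so counts summed over the gene did not separate the labels, and which exons the knockout removes is not given in the sources used here. Epithelial markers were high in every library, at 4661, 4608 and 3863 summed CPM in Phf8-KO1, Phf8-KO2 and TRAMP, and prostate markers stood at 1178, 1108 and 1055. The TRAMP library stood apart in skeletal muscle markers (68.4 and 4.77 CPM in pools Phf8-KO1 and Phf8-KO2, 1254 in TRAMP) and adipocyte markers (5.97, 0.935 and 387), whose part in the results below was not tested, and Phf8-KO1 stood apart in smooth muscle markers (5101 CPM, against 384 in Phf8-KO2 and 685 in TRAMP).

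Collagen chain counts took 0.174% of all counts in Phf8-KO1 and 0.114% in Phf8-KO2, against 0.0374% in TRAMP. Summed over the 43 genes this came to 1747 and 1099 CPM in pools Phf8-KO1 and Phf8-KO2 and 388 CPM in TRAMP. The difference was spread over all 3 classes. Fibrillar chains summed to 1075 and 454 CPM in pools Phf8-KO1 and Phf8-KO2, against 178 CPM in TRAMP. Type IV chains summed to 251 and 272 CPM in pools Phf8-KO1 and Phf8-KO2, against 45.3 CPM for TRAMP, and the other chains to 421 and 373 CPM, against 165 CPM. In RNA of whole tumour tissue, more cells that make a collagen and more collagen RNA per cell cannot be told apart.

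**Figure D1:**
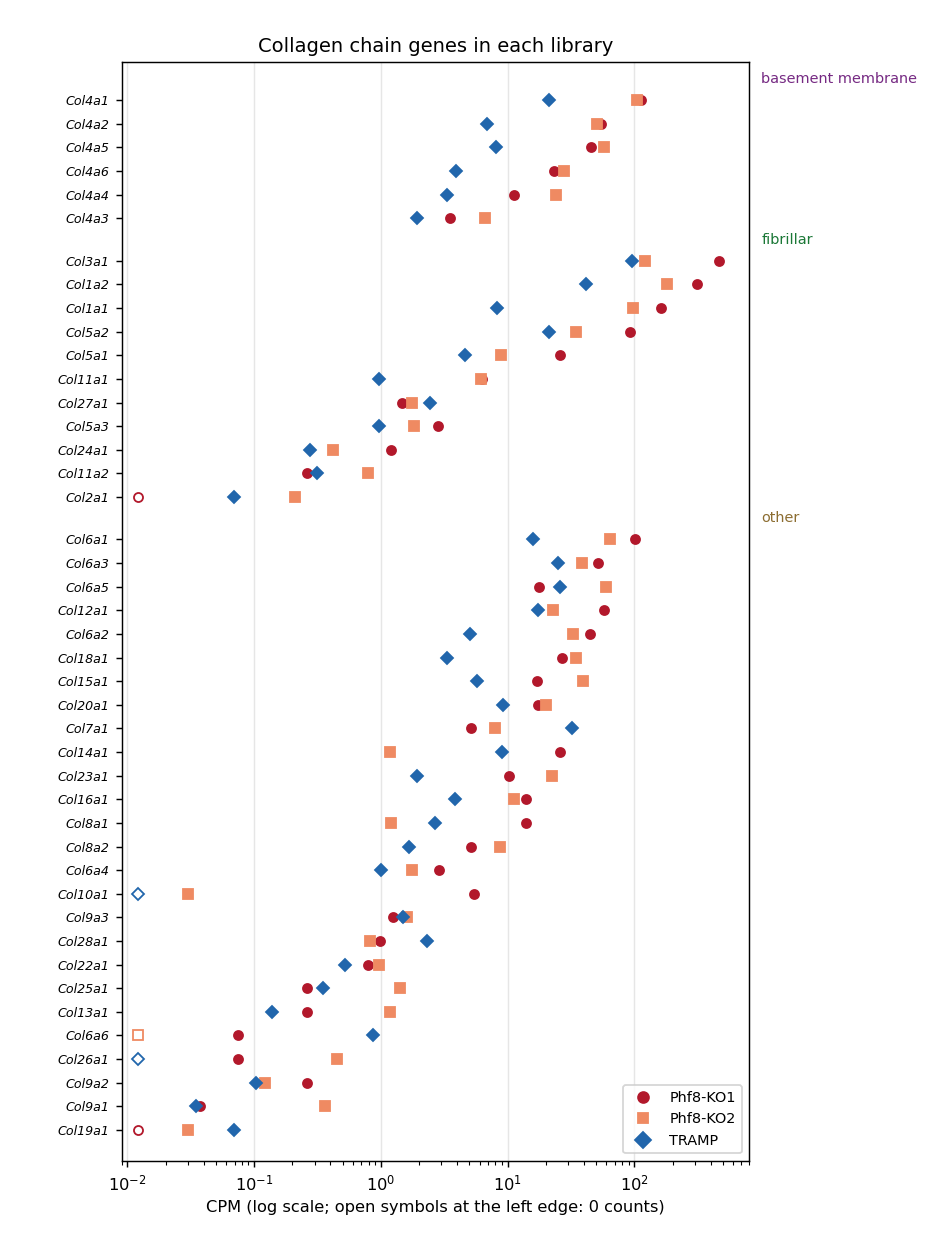
CPM (log axis) of each of the 43 collagen chain genes in Phf8-KO1 (red circles), Phf8-KO2 (orange squares) and TRAMP (blue diamonds), ordered within each class by mean level, with open symbols for 0 counts. Among type IV chains all 6 TRAMP diamonds lie left of both Phf8-KO symbols, while Col7a1, at 5.10 and 7.93 CPM in pools Phf8-KO1 and Phf8-KO2 and 32.1 in TRAMP, lies the other way round.

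Of the 43 genes, 39 had enough counts to be tested; Col2a1, Col9a1, Col9a2 and Col19a1 had at most 12 counts in any library. A filter on low counts keeps a gene that is high in any 1 library. Col10a1, Col11a2, Col13a1, Col24a1 and Col26a1 thus entered through the Phf8-KO pools and Col6a6 through TRAMP. By edgeR's quasi-likelihood test, calling genes at an adjusted p under 0.05 with a difference of over 2-fold, 0 of the 39 were called higher in Phf8-KO (0% of all 18216 genes tested) and 0 were called lower (0.0384% of all genes, 7 genes). The smallest adjusted p of a collagen chain was 0.101. At an unadjusted p under 0.05 there were 17 higher (43.6% of the 39, against 14.9% of all genes) and 1 lower (2.56%, against 12.2%). DESeq2, the tool named in the study's methods, called 16 of the 39 higher (41.0%, against 8.42% of all genes tested). It called 1 lower (2.56%, against 4.1%) and gave no adjusted p for 7 of the 43. limma-voom called 0 in either direction, of members and of all genes. edgeR with no filter on low counts called 14 of the 43 higher (32.6%, against 5.55% of all 25757 genes) and 1 lower (2.33%, against 3.32%). The fit has 1 residual degree of freedom, which comes from the difference between both Phf8-KO pools, and it takes for granted that TRAMP would vary to the same degree.

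In terms of the libraries themselves, 29 of the 39 tested genes (74.4%) were above TRAMP in both Phf8-KO pools, as were 40.8% of all genes, and 4 (10.3%) were below it in both, as were 42.8% of all genes. More than 2-fold in both pools, 17 (43.6%) were above TRAMP, against 11.7% of all genes, and 3 (7.69%) were below it, against 12.4%. The remaining 6 lay on either side of TRAMP, namely Col11a2, Col6a5, Col8a1, Col9a3, Col14a1 and Col25a1. Col10a1 and Col26a1 had 0 counts in TRAMP, so any count put them among the 29 and the 17. Col13a1 and Col24a1, with 4 and 8 counts in TRAMP, passed the filter through the Phf8-KO pools alone and are also among the 29. Col6a6, which passed through TRAMP alone, is among the 4 and the 3 below it. Col10a1 had 1 count in Phf8-KO2 and Col26a1 had 2 in Phf8-KO1, too few to show a 2-fold difference in those pools. The median log2 fold change of the 39 was 1.61, against 0.01 over all genes tested. It was 1.57 with Col10a1 and Col26a1 set against the 3 counts that a 0 in TRAMP allows. By class it was 2.54 for type IV, 1.59 for fibrillar and 1.28 for the other chains. An adjustment for the GC content of transcripts, given at the end, lowered the fold change of 18 of the 39 genes by more than 1.5 times.

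Type IV chains were the class most alike between the pools. Col4a1 and Col4a2, the chains of the network found in nearly all basement membranes, were higher in Phf8-KO by a log2 fold change of 2.36 ± 0.20 and 2.94 ± 0.22 (SE; adjusted p = 0.101 for both). Col4a1 had 113 and 105 CPM in pools Phf8-KO1 and Phf8-KO2, against 21.2 CPM in TRAMP. Col4a2 had 54.9 and 50.6 CPM in pools Phf8-KO1 and Phf8-KO2, against 6.85 CPM for TRAMP. For both genes the pools lay within 1.09-fold of each other and at least 4.97-fold above TRAMP. After the GC adjustment their log2 fold changes were 1.48 and 2.06. Col4a5 and Col4a6, which pair in the basement membrane of smooth muscle and some epithelia, followed closely. Col4a5 had 45.2 and 57.3 CPM in pools Phf8-KO1 and Phf8-KO2, against 8.03 CPM in TRAMP (log2 fold change 2.67 ± 0.28). Col4a6 had 23.1 and 28.0 CPM, against 3.91 CPM in TRAMP (2.71 ± 0.30). Col4a3 and Col4a4, best known from the kidney glomerulus, had the lowest length-scaled levels of the class and the widest gap between the pools. Col4a4 had 11.2 and 24.0 CPM in pools Phf8-KO1 and Phf8-KO2 and 3.32 CPM in TRAMP (2.40 ± 0.64; adjusted p = 0.136), and Col4a3 had 3.49 and 6.67 CPM, against 1.94 CPM (1.39 ± 0.68; adjusted p = 0.277). DESeq2 called 5 of the 6 higher (83.3%, against 8.42% of all genes tested), all but Col4a3, and edgeR called 0. Over the alternatives the adjusted p of Col4a2 lay between 1.38e-14 and 0.106 and that of Col4a1 between 5.97e-13 and 0.106.

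Fibrillar chains were higher in both pools for 8 of the 10 tested (80%, against 40.8% of all genes), but to an unequal degree. Col24a1 is among the 8 and passed the filter through the Phf8-KO pools alone. The median log2 ratio to TRAMP was 2.19 for Phf8-KO1 and 0.91 for Phf8-KO2. Col1a1 had the largest log2 fold change of the class. Col1a1 had 163 and 97.1 CPM in pools Phf8-KO1 and Phf8-KO2, against 8.20 CPM in TRAMP, which is 19.9-fold and 11.8-fold higher (log2 fold change 3.99 ± 0.47; adjusted p = 0.101), and the log2 fold change was 3.10 after the GC adjustment. Col1a2, the partner chain, had 314 and 181 CPM in pools Phf8-KO1 and Phf8-KO2, against 41.8 CPM for TRAMP (2.57 ± 0.45; adjusted p = 0.102). Both type I chains were more than 4-fold above TRAMP in each pool before the GC adjustment. After it, Col1a2 had a log2 ratio of 1.53 in Phf8-KO2. Col3a1, whose product mixes with type I collagen in soft tissues and vessel walls, had 468 and 121 CPM in pools Phf8-KO1 and Phf8-KO2, against 96.6 CPM in TRAMP. Phf8-KO2 was thus only 1.25-fold above TRAMP for Col3a1, and the fitted difference of 1.61 ± 0.93 was less than 2 standard errors (adjusted p = 0.337). DESeq2 called 4 of the 10 fibrillar chains higher, Col1a1, Col1a2, Col5a2 and Col11a1 (40%, against 8.42% of all genes tested), and edgeR called 0.

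The type V chains, which set fibril diameter, shared this lean towards Phf8-KO1. Col5a1 had 25.9 and 8.81 CPM in pools Phf8-KO1 and Phf8-KO2 and 4.60 CPM in TRAMP, Col5a2 had 92.0 and 34.6 CPM against 21.3 CPM, and Col5a3 had 2.81 and 1.81 CPM against 0.969 CPM. Their log2 fold changes were 1.91 ± 0.81, 1.57 ± 0.69 and 1.25 ± 0.71, with adjusted p between 0.233 and 0.330. Col11a1, a chain of type XI collagen that is best known from cartilage, was the exception in being level between the pools. It had 6.30 and 6.21 CPM in pools Phf8-KO1 and Phf8-KO2, against 0.969 CPM in TRAMP (2.69 ± 0.54; adjusted p = 0.108). Col11a2 was split, with 7 and 26 counts in the Phf8-KO pools and 9 in TRAMP, and Col24a1 had 32 and 14 counts against 8. Col27a1 was the only tested fibrillar chain below TRAMP in both pools, at 1.46 and 1.75 CPM against 2.46 CPM (-0.61 ± 0.60). Col2a1, the main cartilage chain, had 0 and 7 counts in the Phf8-KO pools and 2 in TRAMP. A count of 0 in Phf8-KO1 allows up to 0.113 CPM.

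Among the other types, the type VI chains form beaded filaments around cells and next to basement membranes. Col6a1 had 101 and 64.5 CPM in pools Phf8-KO1 and Phf8-KO2, against 15.8 CPM in TRAMP (log2 fold change 2.39 ± 0.38). Col6a2 had 45.0 and 32.9 CPM, against 5.09 CPM in TRAMP (2.94 ± 0.33). Both were above TRAMP by more than 4-fold in each pool before the GC adjustment. After it, Col6a1 had a log2 ratio of 1.44 in Phf8-KO2. Col6a3, which joins them in the same molecule, differed less, with 51.5 and 38.3 CPM in pools Phf8-KO1 and Phf8-KO2 and 24.8 CPM in TRAMP (0.86 ± 0.27; adjusted p = 0.162). The remaining members of the type went their own ways. Col6a4 had 77 and 58 counts, against 29 counts in TRAMP. Col6a5 was split, at 17.6 CPM (Phf8-KO1) and 59.6 CPM (Phf8-KO2) around 25.7 CPM in TRAMP. Col6a6 had 2 and 0 counts in the Phf8-KO pools, against 25 counts in TRAMP (adjusted p = 0.189).

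The multiplexins Col18a1 and Col15a1, collagens of the basement membrane zone, resembled the type IV chains. Col18a1, from which endostatin is cleaved, had 27.0 and 34.5 CPM in pools Phf8-KO1 and Phf8-KO2, against 3.32 CPM in TRAMP (log2 fold change 3.21 ± 0.32; adjusted p = 0.101). Col15a1 had 16.9 and 39.3 CPM, against 5.74 CPM in TRAMP (2.29 ± 0.65; adjusted p = 0.145). The transmembrane collagens leaned to Phf8-KO2 in all 3 cases. Col23a1 had 10.2 and 22.4 CPM in pools Phf8-KO1 and Phf8-KO2, against 1.94 CPM for TRAMP (3.07 ± 0.69; adjusted p = 0.116), and DESeq2 called it higher. Col13a1 and Col25a1 had few counts, with 7 and 39 counts against 4 in TRAMP and 7 and 47 counts against 10.

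The fibril-associated collagens with interrupted triple helices (FACIT) decorate the surface of fibrils. Col16a1 had 14.0 and 11.3 CPM in pools Phf8-KO1 and Phf8-KO2, against 3.87 CPM in TRAMP (log2 fold change 1.71 ± 0.40; adjusted p = 0.119). Col20a1 had 17.4 and 19.9 CPM against 9.27 CPM (1.01 ± 0.29; adjusted p = 0.144). Both were even between the pools. Col12a1 followed the fibrillar pattern, at 57.2 and 22.8 CPM against 17.3 CPM. Col14a1 was the most divided of the tested chains with counts in every library, at 26.0 CPM (Phf8-KO1) and 1.18 CPM (Phf8-KO2) around 9.06 CPM in TRAMP, and its fitted log2 fold change of 0.58 ± 1.76 turned to -0.89 with limma-voom. Col9a3 had 1.24 and 1.60 CPM against 1.49 CPM, a log2 fold change of -0.07 that was 0.01 on library size alone, and Col22a1 had 0.788 and 0.965 CPM against 0.519 CPM.

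Of the network-forming chains, Col8a2 had 5.18 and 8.66 CPM in pools Phf8-KO1 and Phf8-KO2, against 1.66 CPM in TRAMP (log2 fold change 2.06 ± 0.61; adjusted p = 0.151). Its partner Col8a1 was split, at 13.9 and 1.21 CPM around 2.66 CPM. DESeq2 called 7 of the 23 tested chains of the other types higher (30.4%, against 8.42% of all genes tested), and edgeR called 0. The 7 were Col6a1, Col6a2, Col8a2, Col15a1, Col16a1, Col18a1 and Col23a1. Col10a1, the chain of hypertrophic cartilage, had 145 counts in Phf8-KO1, 1 in Phf8-KO2 and 0 in TRAMP. Set against the 3 counts that a 0 in TRAMP allows (0.104 CPM), the summed counts of both Phf8-KO pools were at least 23.5-fold higher for their library size, and Phf8-KO1 alone carried that value. Col26a1 had 2 and 15 counts in the Phf8-KO pools and 0 in TRAMP, 2.74-fold higher on the same footing. Its counting interval began at 1.99-fold, and the 0.0750 CPM of Phf8-KO1 alone lay under the 0.104 CPM that TRAMP allows. Cartilage and bone markers had too few counts to be compared with Col10a1. Comp had 8 and 1 counts in the Phf8-KO pools and 3 in TRAMP, Acan 2 and 0 against 0, Ibsp 1 and 0 against 0, Bglap 0 and 1 against 0, and Matn1 had 0 in every library. The exception was Runx2, a transcription factor of bone and cartilage that other cells also use, which had 33.5 and 44.9 CPM in pools Phf8-KO1 and Phf8-KO2, against 10.4 CPM in TRAMP.

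Col7a1 ran against the family. Type VII collagen forms the anchoring fibrils that tie the basement membrane of stratified epithelia to the fibrils below. Col7a1 had 5.10 and 7.93 CPM in pools Phf8-KO1 and Phf8-KO2, against 32.1 CPM in TRAMP. Its log2 fold change was -2.30 ± 0.37 (adjusted p = 0.101, and between 0.000293 and 0.106 over the alternatives), and it was the collagen that DESeq2 called lower. Of all collagen CPM, Col7a1 took 0.292% and 0.722% in the Phf8-KO pools and 8.27% in TRAMP. Col28a1, also below TRAMP in both pools, had 0.975 and 0.815 CPM, against 2.32 CPM (-1.37 ± 0.65; adjusted p = 0.266).

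**Figure D2:**
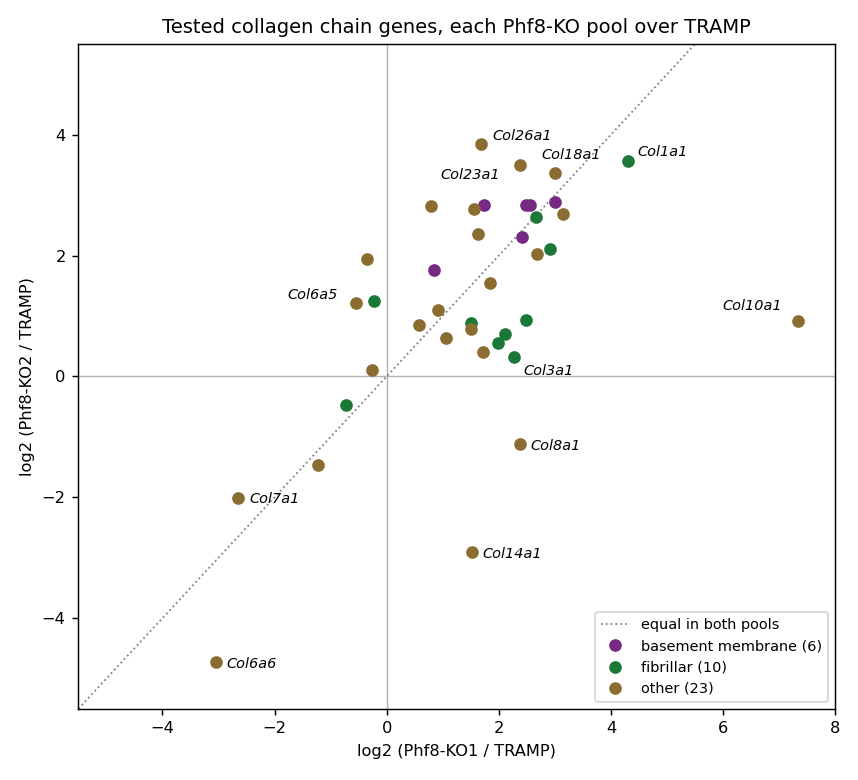
Log2 ratio to TRAMP of each of the 39 tested genes in Phf8-KO1 (x axis) and Phf8-KO2 (y axis), coloured by class, with a dotted line where both pools are equal. All 6 type IV chains lie to the upper right with a median of 2.45 in Phf8-KO1 and 2.83 in Phf8-KO2, and Col14a1 and Col8a1 lie below the 0 line in Phf8-KO2 alone.

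Phf8-KO1 and Phf8-KO2 lay more than 2-fold apart in 17 of the 39 genes (43.6%, against 19.8% of all genes). The median size of that log2 difference was 1.10 for fibrillar chains, 0.31 for type IV chains and 0.74 for the other chains. Phf8-KO1 was above Phf8-KO2 in 8 of the 10 fibrillar chains, in 2 of the 6 type IV chains and in 11 of the 23 others. The split put the classes in different proportions, so that fibrillar chains took 61.5% and 41.3% of collagen CPM in pools Phf8-KO1 and Phf8-KO2 and 45.8% in TRAMP. Type IV chains took 14.4% and 24.7% in the Phf8-KO pools and 11.7% in TRAMP, and the others 24.1% and 34.0%, against 42.5%. Smooth muscle markers moved the same way as the fibrillar chains between the pools, with 8 of 8 markers more than 2-fold apart. Fibroblast markers did so in sum (923 and 348 CPM), with 6 of 8 more than 2-fold apart, though Pdgfra and Fap were higher in Phf8-KO2. The part of either list in the difference was not tested.

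Levels of different genes were compared per kilobase of exon (RPKM, on merged exons). Col3a1 ranked first of the 43 in Phf8-KO1 (47.7 RPKM) and in TRAMP (9.84 RPKM), but 5 in Phf8-KO2 (12.3 RPKM), where Col1a1, Col6a1, Col1a2 and Col4a1 lay between 14.1 and 14.8 RPKM. Col1a1 ranked 3 and 1 in the Phf8-KO pools and 11 in TRAMP, whereas Col7a1 ranked 25 and 22 in the Phf8-KO pools and 4 in TRAMP. The order at the top of Phf8-KO2 turned with the gene length used. By the longest transcript Col1a2 ranked 1 there (33.8 RPKM), Col3a1 2 (21.7 RPKM) and Col1a1 3 (16.4 RPKM), while Col3a1 stayed first in Phf8-KO1 and in TRAMP, Col1a1 ranked 3 in Phf8-KO1 and 12 in TRAMP, and Col7a1 26 and 22 in the Phf8-KO pools and 4 in TRAMP. Chains that assemble in one molecule were not all in the same ratio. Type I collagen is mostly a heterotrimer with more Col1a1 than Col1a2 product. The ratio of Col1a1 to Col1a2 was 0.984 in Phf8-KO1 (95% counting interval 0.948 to 1.02), and Phf8-KO2 gave 1.02 (0.972 to 1.06), against 0.371 in TRAMP (0.322 to 0.427). The pools were alike and they stood 2.65-fold and 2.73-fold above TRAMP, a factor in which gene length cancels but GC content does not. No ratio between chains was adjusted for GC content, in which Col1a1 lay in the highest of 10 classes and Col1a2 and Col3a1 in lower ones. Col4a1 to Col4a2 was 1.83 and 1.85 in Phf8-KO1 and Phf8-KO2, against 2.75 in TRAMP (2.34 to 3.24). Col4a5 to Col4a6 was much the same in all libraries, at 2.32 and 2.43 in the Phf8-KO pools and 2.44 in TRAMP. Col6a3 to Col6a1 was 0.186 and 0.218 in the Phf8-KO pools and 0.575 in TRAMP (0.510 to 0.648). Type III to type I, as Col3a1 to Col1a1, reached 1.92 in Phf8-KO1 but 0.833 in Phf8-KO2, against 7.88 in TRAMP (6.90 to 9.03). These intervals cover counting error only, and with the longest transcript as gene length the Col1a1 to Col1a2 ratios were 0.468, 0.484 and 0.177 and that of Col3a1 to Col1a1 in Phf8-KO2 turned to 1.33.

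**Figure D3:**
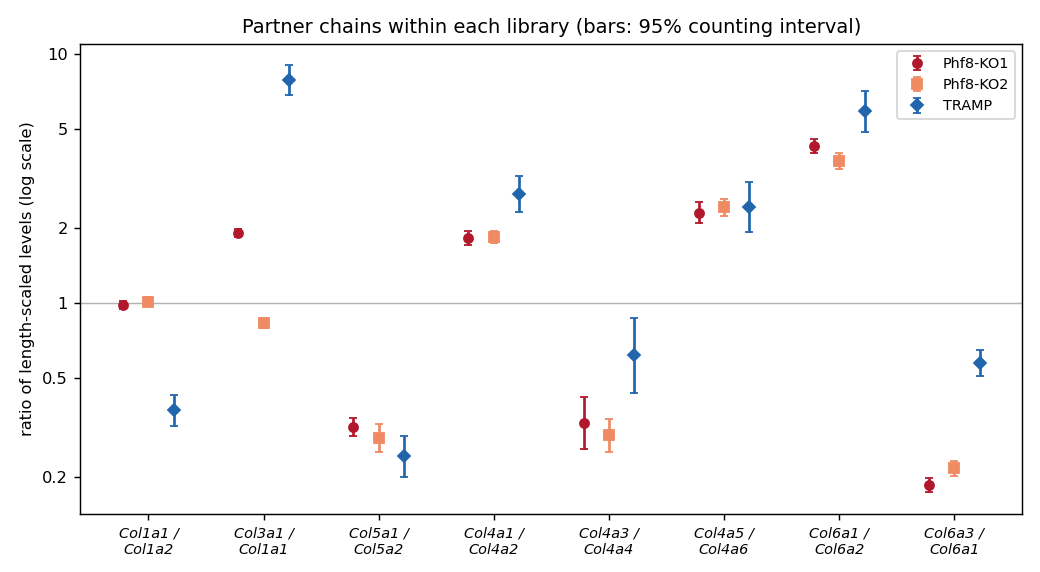
Ratio of the length-scaled levels (log axis) of 8 pairs of chains in Phf8-KO1, Phf8-KO2 and TRAMP, with bars for the 95% counting interval. Both Phf8-KO pools lie together and apart from TRAMP for Col1a1 over Col1a2 (0.984 and 1.02, TRAMP 0.371) and for Col6a3 over Col6a1 (0.186 and 0.218, TRAMP 0.575), while for Col4a5 over Col4a6 the 3 libraries overlap.

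The type IV genes lie in head-to-head pairs, which start close together and run in opposite directions. In the GENCODE M21 transcripts with the longest coding sequence, the first exons of Col4a1 and Col4a2 on chromosome 8 overlap by 22 bases. Col4a4 and Col4a3 on chromosome 1 start 126 bases apart there, and Col4a6 and Col4a5 on chromosome X start 1308 bases apart. RefSeq gene bounds differ. Those of Col4a4 reach 82587034 and those of Col4a3 begin at 82586921, so that these genes overlap in RefSeq. The strand setting of the counting is not given in the sources used here, so reads of the 22 shared bases cannot be told apart. Within each pair the log2 fold changes were 2.36 and 2.94, 2.40 and 1.39, and 2.71 and 2.67. Sequence from RefSeq, upstream of an annotated start and outside GENCODE exons, is shown for 1 such pair. It is also shown for Col18a1 and Col7a1, the higher and the lower chain with the smallest p among the other types. The stretch of Col4a4 lies inside the RefSeq bounds of that gene. All are given 5′ to 3′ on the strand of the named gene, with GC boxes in capitals.
Col4a4 (chr1:82586850-82586920, minus strand): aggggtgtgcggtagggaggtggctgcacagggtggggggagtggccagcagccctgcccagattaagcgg
Col18a1 (chr10:77166549-77166668, minus strand): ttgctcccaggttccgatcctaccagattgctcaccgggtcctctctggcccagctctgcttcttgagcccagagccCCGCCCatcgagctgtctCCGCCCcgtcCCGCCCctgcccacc
Col7a1 (chr9:108953466-108953585, plus strand): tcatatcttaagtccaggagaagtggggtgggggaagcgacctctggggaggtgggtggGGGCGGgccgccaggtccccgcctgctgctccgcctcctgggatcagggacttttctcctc
No GC box lies in the stretch of Col4a4. The GC box was searched as GGGCGG or its reverse complement CCGCCC in windows of 250 bases before to 50 bases after each start. It was found in 23 of the 37 windows of the 34 collagen genes that matched (62.2%), against 35.7% of all 32851 windows. By class it was in 6 of 8 fibrillar, 4 of 5 type IV and 13 of 24 other windows. The CCAAT box (CCAAT or ATTGG) was in 12 of the 37 (32.4%, against 37.4% of all windows), and TATAAA or TTTATA in 4 (10.8%, against 13.6%). The printed stretches of Col18a1, higher in Phf8-KO, and Col7a1, lower, both held a GC box. That of Col4a4, also higher, held none, and windows were not compared by direction.

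Genes that make, process and bind collagen were followed as 5 lists, whose values were not adjusted for GC content. Over all genes tested, 40.8% were above TRAMP in both pools and 42.8% below it in both, and DESeq2 called 8.42% higher. Of the 18 genes of collagen biosynthesis, the enzymes and chaperones of the endoplasmic reticulum, 14 were above TRAMP in both pools and 3 below, with a median log2 fold change of 1.10, 0 calls by edgeR and 4 by DESeq2. Serpinh1, the collagen chaperone HSP47, had 121 and 70.0 CPM in pools Phf8-KO1 and Phf8-KO2, against 32.7 CPM in TRAMP (log2 fold change 1.54 ± 0.42). Fkbp10, a further chaperone, had 14.6 and 11.0 CPM against 2.08 CPM (2.62 ± 0.45). P4ha2, a prolyl hydroxylase subunit, had 58.3 and 68.6 CPM against 25.1 CPM, and Plod3, a lysyl hydroxylase, had a log2 fold change of 1.32 ± 0.21. Of the 12 tested genes of collagen maturation, 7 were above TRAMP in both pools and 1 below (median 0.82, 0 calls by edgeR and 2 by DESeq2). The crosslinking enzyme Lox had 54.8 and 60.5 CPM in pools Phf8-KO1 and Phf8-KO2, against 11.4 CPM for TRAMP (2.34 ± 0.22; adjusted p = 0.101), and the procollagen peptidase Adamts2 had 12.4 and 16.9 CPM against 3.36 CPM (2.13 ± 0.42). Loxl2 and Bmp1 had log2 fold changes of 1.47 ± 0.46 and 1.09 ± 0.39.

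The partners of type IV collagen in the basement membrane were the list closest to it. Of its 16 genes, 14 were above TRAMP in both pools (40.8% of all genes) and 0 below (42.8%), with 8 more than 2-fold above (11.7%). The median was 1.40, with 0 calls by edgeR and 9 higher by DESeq2 (8.42% of all genes). Lama5, a laminin chain of epithelial basement membranes, had 281 and 282 CPM in pools Phf8-KO1 and Phf8-KO2, against 74.1 CPM in TRAMP (log2 fold change 1.93 ± 0.22). Lamb2 had 324 and 264 CPM, against 64.5 CPM (2.19 ± 0.26). The proteoglycan perlecan, Hspg2, had 44.7 and 23.9 CPM against 8.41 CPM, and Pxdn, the peroxidase that crosslinks type IV collagen, had 17.9 and 17.5 CPM against 5.57 CPM (1.67 ± 0.30).

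Fibril-associated proteoglycans and collagen receptors did not lean one way. The shares to set beside their counts are 40.8% of all genes above TRAMP in both pools, 42.8% below and 8.42% called higher by DESeq2. Of 10 tested proteoglycan genes, 4 were above TRAMP in both pools and 4 below (median -0.16, 0 calls by edgeR and 3 higher by DESeq2). Dcn, which coats fibrils, had 639 and 214 CPM in pools Phf8-KO1 and Phf8-KO2, against 1473 CPM in TRAMP (log2 fold change -1.79 ± 0.71). Sparc, a collagen-binding glycoprotein, had 337 and 213 CPM against 87.8 CPM (1.65 ± 0.38), Fmod 6.90 and 11.2 CPM against 1.70 CPM, and Prelp 46.9 and 21.4 CPM against 12.0 CPM. Of 9 tested receptors, 3 were above TRAMP in both pools and 1 below (median 0.19, 0 calls by edgeR and 1 by DESeq2). Ddr1, the collagen receptor of epithelial cells, had 60.9 and 63.7 CPM in pools Phf8-KO1 and Phf8-KO2, against 14.9 CPM for TRAMP (2.07 ± 0.20; adjusted p = 0.101). Itga2 and Mrc2 had log2 fold changes of 1.29 ± 0.54 and 1.20 ± 0.55, and Lair1, an inhibitory receptor of leukocytes, had 3.04 and 1.18 CPM against 9.96 CPM (-2.24 ± 0.71).

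Markers of fibroblasts, smooth muscle, pericytes, vessels and Schwann cells were not ordered over the libraries as the collagen sum was. Fibroblast markers summed to 923 and 348 CPM in pools Phf8-KO1 and Phf8-KO2, against 1715 CPM in TRAMP. Of the 8, 1 was above TRAMP in both pools (40.8% of all genes) and 3 below (42.8%). Dcn, which with Lum and Dpt is also in the proteoglycan list, set the side of Phf8-KO1, and without it, a sum taken after seeing the data, the list stood at 283 and 133 CPM in pools Phf8-KO1 and Phf8-KO2, against 242 CPM in TRAMP. Pdgfra had 28.8 and 86.8 CPM in pools Phf8-KO1 and Phf8-KO2 and 43.7 CPM in TRAMP. Smooth muscle markers were at 5101 CPM in Phf8-KO1 but at 384 CPM in Phf8-KO2, against 685 CPM in TRAMP, led by Acta2 and Myh11 (1509 and 156 CPM against 196 CPM, and 1415 and 72.2 CPM against 126 CPM). Pericyte markers summed to 48.7 and 32.3 CPM in pools Phf8-KO1 and Phf8-KO2 and 40.5 CPM in TRAMP, led by Rgs5 and Abcc9. Endothelial markers summed to 67.0 and 106 CPM against 82.8 CPM, led by Pecam1 and Cdh5, and Schwann cell markers to 40.9 and 30.7 CPM against 47.2 CPM, led by Pmp22. In the adipocyte list Cfd and Adipoq led, in the skeletal muscle list Tnnt3 and Ckm, in the epithelial list Epcam and Krt18 and in the prostate list Foxa1. The cartilage and bone list stood at 33.9 and 44.9 CPM in pools Phf8-KO1 and Phf8-KO2 and 10.5 CPM in TRAMP, nearly all Runx2, with 4 of 6 members at 0 in TRAMP. Of the 10 lists, the cartilage and bone, epithelial and prostate lists summed higher in both Phf8-KO pools. In Phf8-KO2 the sums of fibroblast and of smooth muscle markers were below TRAMP, but not each marker. Fap had 4.71 CPM in Phf8-KO2, against 2.84 CPM in TRAMP, Smtn had 17.2 CPM against 8.55 CPM and Lmod1 3.59 CPM against 2.28 CPM, as Pdgfra was higher too. The part of these markers in the collagen differences was not tested. Neuroendocrine markers, a list of 5 genes chosen after the other values were seen, summed to 11.5 and 10.2 CPM in pools Phf8-KO1 and Phf8-KO2, against 43.3 CPM in TRAMP, and their part in the collagen differences was not tested.

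**Figure D4:**
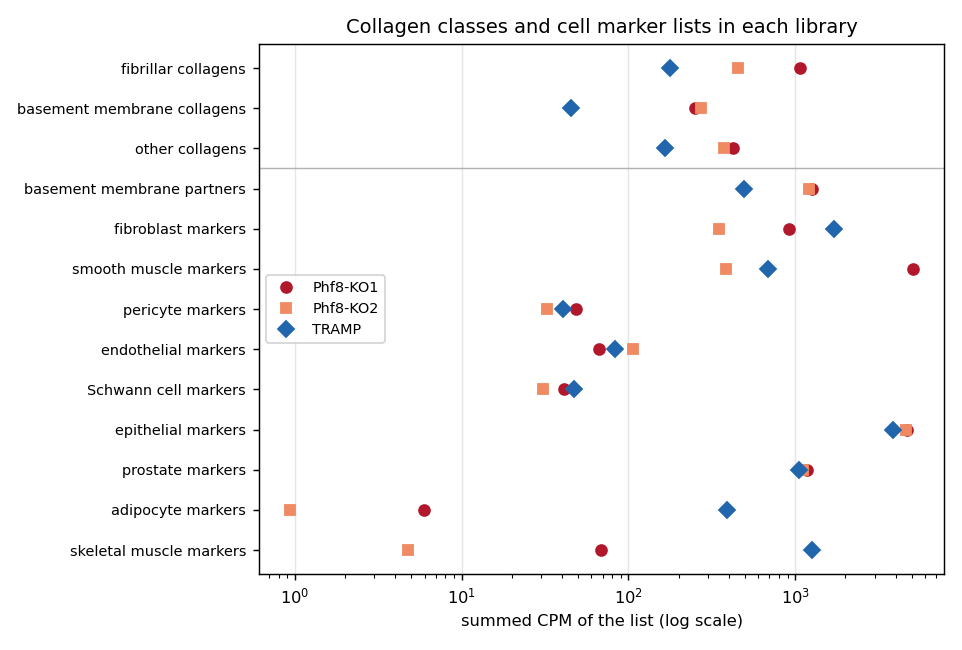
Summed CPM (log axis) of the 3 collagen classes and of 1 list of basement membrane genes and 9 cell marker lists in Phf8-KO1, Phf8-KO2 and TRAMP. Collagen classes lie higher in both Phf8-KO pools, fibroblast markers (923 and 348 CPM, TRAMP 1715) lie lower, which for Phf8-KO1 rests on Dcn (283 CPM without it, TRAMP 242), and smooth muscle markers are high in Phf8-KO1 alone.

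Fold changes in these libraries also moved with base composition. Over the 16608 tested genes with a known transcript, the median log2 fold change was -0.49 in the lowest of 10 GC classes of equal size and 0.89 in the highest, alike in both pools. Collagen transcripts had a median GC content of 55.1%, against 49.6% over all genes. After subtraction of the median of all genes in the same GC class, the median log2 fold change was 2.18 for type IV chains, 1.40 for fibrillar chains and 1.17 for the other chains. Then 28 of the 39 were above TRAMP in both pools (41.0% of all genes), and 13 were more than 2-fold above (7.72% of all genes). Col11a2 alone changed the sign of its fitted log2 fold change, to -0.13. In single pools Col13a1 turned below TRAMP in Phf8-KO1 (log2 ratio -0.03, against 0.78 unadjusted) and Col9a3 in Phf8-KO2 (-0.76, against 0.10). Col1a1 in Phf8-KO2 had a log2 ratio of 2.70, against 3.56 unadjusted, and Col4a1 of 1.45, against 2.31. Col5a1 and Col5a3 were left close to TRAMP in Phf8-KO2, at 0.07 and 0.02, against 0.93 and 0.88 unadjusted.

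**Figure D5:**
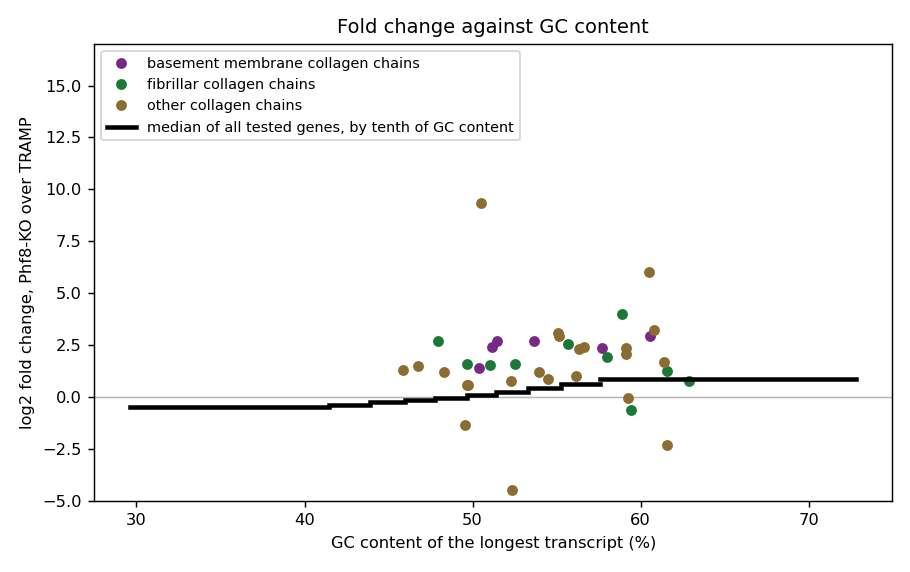
Log2 fold change of Phf8-KO over TRAMP against GC content (percent) of the longest transcript for the tested collagen chain genes (points, by class), with black steps for the median of all tested genes in each of 10 GC classes. The steps run between -0.49 and 0.89, and all 6 type IV chains lie above them.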

How the data were processed

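RNA of prostate tumour tissue was sequenced as 2 Phf8-KO libraries and 1 TRAMP library, each a pool of 3 mice. The deposited values are raw counts per gene, which the authors obtained by mapping reads to GRCm38 with HISAT2 and counting with HTSeq. Counting options and annotation release are not given in the sources used here. From these counts, edgeR 4.0.16 (R 4.3.3) with TMM scaling, filterByExpr and the quasi-likelihood test was fitted over all 18216 genes that passed the filter, with Benjamini-Hochberg adjustment. CPM used TMM-scaled library sizes, and log2 ratios of single pools used a prior count of 1. RPKM used merged exons of GENCODE M21. Scripts were tested on simulated data. DESeq2 1.42.0, limma-voom (limma 3.58.1), other scalings and filters, each Phf8-KO pool left out, and a GC adjustment and a newer quasi-likelihood version chosen after seeing the data were the alternatives. Whether the pools share mice is not stated, so p-values measure only the spread between these libraries. All collagen chains were named, with up to 4 genes of each pathway list by smallest p and up to 2 of each cell marker list by highest mean CPM, apart from some marker genes that are not reported here. The members and lists were chosen with earlier results of these data known.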

Additional observations from a re-analysis of the deposited data

How the results depend on the processing

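No paired analysis was possible because TRAMP has 1 library and the groups share fewer than 2 replicate numbers. The number of calls depended on the tool. Over all genes, 7 lower and 0 higher calls became 19 and 1 on library size alone, 856 and 1430 without a filter, 747 and 1533 with DESeq2, and 0 lower with limma-voom or with a mean CPM of at least 1. For collagen chains, 0 lower and 0 higher became 1 and 14 without a filter and 1 and 16 with DESeq2, and the cause was not tested. Median fold changes by class kept their direction under every scaling, filter and tool run. The number above TRAMP in both pools, recomputed for the scalings and the GC adjustment only, was 29 with each scaling and 28 after the GC adjustment. Of single collagen chains, Col9a3 turned to 0.014 on library size alone, Col14a1 to -0.89 with limma-voom, and Col11a2 turned after the GC adjustment, which left the type IV median at 2.18 and moved 19 of 39 chains by more than the spread between the pools. Upper quartile scaling moved the median of all genes by -0.15 (log2), and no collagen chain changed sign with it. Leaving out either Phf8-KO pool gives 1 library against 1, with no test. The type IV median then ranged between 2.45 and 2.83, the fibrillar median between 0.91 and 2.19 and that of the others between 1.10 and 1.52. The number above TRAMP ranged between 31 and 33, and the number more than 2-fold above between 23 and 27. With the longest transcript as gene length, Col1a1 over Col1a2 was 0.468, 0.484 and 0.177 in Phf8-KO1, Phf8-KO2 and TRAMP, Col3a1 over Col1a1 3.06, 1.33 and 12.6, Col4a1 over Col4a2 2.01 and 2.03 in the Phf8-KO pools, and Col6a3 over Col6a1 0.206 and 0.241 there. The planned quasi-likelihood alternative proved to be edgeR's default, and the newer version of the test changed no collagen call. Depth limits chains under about 10 counts, such as Col2a1, Col9a2 and Col19a1, for which no difference was detectable.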
